A study of Bos taurus with 40 samples.

Results

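Liver was set against pituitary gland, abdominal fat and longissimus dorsi muscle of the same cattle. The liver libraries were the 10 whose submitted tissue label is liver, of 40 libraries in all, and the other 30 were 10 each of fat, muscle and pituitary gland. Every library held poly-A RNA of a whole piece of tissue from 1 animal, so the cells in it were mixed. The animals were 5 cows and 5 bulls of Korean cattle, each over 22 months of age at slaughter. They were untreated as far as the labels say, and by the ear tag numbers in the labels each animal gave all 4 tissues. The study sequenced these tissues to ask how the sexes differ. Here cows and bulls were pooled to describe how expression in liver differs from that in the other tissues, and the sexes were compared at the end.

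The liver receives the blood that drains the gut and returns most plasma proteins to the circulation. Its main cell, the hepatocyte, secretes albumin, clotting factors, complement and apolipoproteins, turns ammonia into urea, makes bile acids, and oxidizes and conjugates foreign compounds. Ruminants absorb little glucose, because feed is fermented in the rumen to acetate, propionate and butyrate. Their liver makes glucose from propionate, whereas fatty acids are built from acetate mainly in fat. Kupffer cells, sinusoidal endothelium, stellate cells and bile duct cells make up most of the rest of the organ.

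Between 6898811 and 16532755 reads per liver library fell on genes, against 5173092 to 19165864 over all 40 libraries. Of 13570 genes in the tables, 13148 had at least 1 read in some library and were tested. Levels are in CPM, the reads on a gene scaled to a common library size, after scaling by TMM factors, which correct for the few genes that take much of a library. These factors were 0.662 to 0.912 in liver, 0.518 to 0.912 in muscle, 0.963 to 1.46 in fat and 1.18 to 1.71 in pituitary gland. Folds are log2 values from edgeR's quasi-likelihood test of 40 libraries with the animal as a block. The test gives no standard error (SE). The SE after a fold is approximate: the size of the fold, fitted without a prior count, divided by the square root of the F statistic. Adjusted p-values are Benjamini-Hochberg values over all 13148 genes.

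The liver library labelled bull 3 went against its label. It held 8694 reads of XIST, the RNA that coats the inactive X chromosome of females, and no read of DDX3Y, USP9Y or ZFY, which lie on the Y chromosome. The other 4 livers labelled as bulls had 2 to 12 reads of XIST. The fat, muscle and pituitary libraries under the same ear tag had 1 or 2 reads of XIST and 211 to 742 of USP9Y, so this liver did not match them in sex. This library was closest to the liver of cow 4: over the genes with enough reads, their chi-square per degree of freedom was 15.85, against 45.79 for the next closest of 45 liver pairs. Counting noise alone would give a value near 1, so the 2 libraries differed by more than counting noise. The value does not tell whether both came from 1 liver. They were kept as separate libraries, and with both taken as 1 sample 1300 genes were higher and 1170 lower in liver than in each other tissue, in place of 1314 and 1206. The fat library labelled bull 5 had 2, 23 and 3 reads of DDX3Y, USP9Y and ZFY, against at least 20, 311 and 96 in the other 4 fat libraries labelled as bulls. Counts printed for a list of genes that changed when either of these libraries was left out are given both ways beside the list.

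Hepatocyte markers separated the liver from the other tissues. ALB, which encodes albumin, lay between 71709 and 178132 CPM in the livers, with a median of 116818. None of the other 30 libraries exceeded 105 CPM. The log2 fold change of ALB against the mean of the 3 other tissues was 12.23 ± 0.36 (SE), with adjusted p = 3.97e-26 in the edgeR quasi-likelihood test. FGB, the beta chain of fibrinogen, ranged from 35589 to 132581 CPM in liver and reached at most 47.3 CPM elsewhere. APOA1, the main protein of high-density lipoprotein, was much lower. Its liver libraries lay between 43.2 and 289 CPM with a median of 161, and 1 of the fat libraries held 337 CPM, so the tissues overlapped. It was higher in liver than in each other tissue, by 1.83 ± 0.39 against fat (edgeR quasi-likelihood test, adjusted p = 0.000121) and by 5.11 ± 0.44 against muscle.

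A small number of secreted proteins took much of each liver library. ALB alone held 8.92% of the reads on genes as the mean of 10 livers, followed by FGB with 5.48%, FGG with 3.60%, C3 with 3.08% and FGA with 2.75%. The next genes were TF, which encodes the iron carrier transferrin (1.81%), HP, the haemoglobin carrier haptoglobin (1.10%), and CPS1, which starts the urea cycle (0.648%). HPX, the haem carrier hemopexin, and PLG, the precursor of the clot-dissolving enzyme plasmin, completed the 10 leading genes. Together these genes took 20.2% to 34.3% of the reads in a liver library, and at most 0.284% in any other library. Shares of reads depend on transcript length as well as on the number of transcripts.

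**Figure D1:**
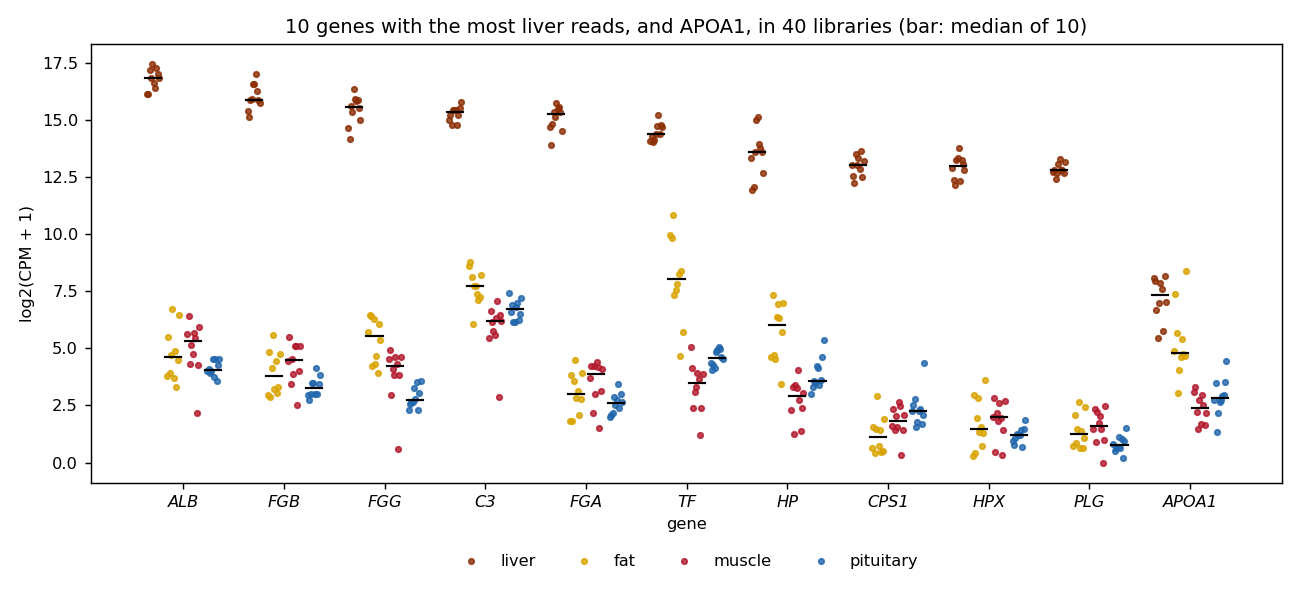
Level of the 10 genes with the largest mean share of liver reads, and of APOA1, in each of 40 libraries. The vertical axis is log2(CPM + 1), each point is a library, colours mark the tissue and each bar is the median of 10 libraries. The livers stand above all other libraries for the 10 leading genes, whereas APOA1 of liver and fat overlap.

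Against the mean of the other tissues, 8587 of 13148 genes had an adjusted p below 0.05 in the edgeR quasi-likelihood test. With a log2 fold change of at least 1 in size, 2473 genes were higher (18.8% of the genes tested) and 3161 were lower (24.0%) in liver. The stricter question is which genes differed from each of the other tissues, with an adjusted p below 0.05 and a log2 fold change of at least 1 in all 3 contrasts. By that rule 1314 genes were higher in liver (9.99%) and 1206 were lower (9.17%). Every liver library exceeded every other library for 760 genes (5.78%), and every liver library was below every other for 394 genes (3.0%). The 1314 genes called higher held 60.4% to 66.7% of the reads in liver libraries, 5.07% to 6.12% in fat, 2.72% to 3.74% in pituitary gland and 1.25% to 2.52% in muscle.

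The median log2 fold change of all genes was -0.21, and folds of gene groups should be read against that value. With library sizes alone in place of TMM factors the median moved to -0.64, and the split became 908 genes higher and 1751 lower than in each other tissue. A log2 fold change of at least 5 in all 3 contrasts was reached by 313 genes that were higher and by 31 that were lower. Fewer cells of a type and less RNA per cell cannot be told apart in such libraries.

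The 15 genes with the largest log2 fold change, from PLG (12.45 ± 0.28) down to C9 (12.17 ± 0.28), had mean liver levels from 576 to 117192 CPM. OTC, a mitochondrial enzyme of the urea cycle, stood at 382 to 751 CPM in liver and reached at most 0.696 CPM elsewhere. CYP2E1, which oxidizes ethanol and ketones, ranged from 248 to 7697 CPM in liver, and AMBP, the precursor of alpha-1-microglobulin and bikunin, from 5259 to 12611 CPM. The others were FGB, FGA and ALB, the vitamin D carrier GC, the chitinase gene CHIA, APOH, HAVCR1, the kininogen KNG1, SERPINA3-7 and the serum amyloid gene SAA4. SERPINA3-7 belongs to a family of near-identical copies, and the authors counted uniquely aligned reads only, so its level is uncertain.

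Genes with the largest folds still had reads in the other tissues. For the 50 genes with the largest folds, the mean level in fat was 316 ppm of that in liver as the median (131 to 855). The same ratio was 322 ppm in muscle (75.7 to 456) and 136 ppm in pituitary gland (0 to 245). These ratios are the inverse of the folds by which the 50 genes were chosen, so how narrowly they lie follows from the choice. In the other direction, 6 abundant pituitary genes stood in liver at 601 to 929 ppm of their pituitary level, and 6 abundant muscle genes at 166 to 305 ppm of their muscle level. PRL, the pituitary hormone prolactin, lay between 8.88 and 311 CPM in the livers. The cause of these low levels was not tested.

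**Figure D2:**
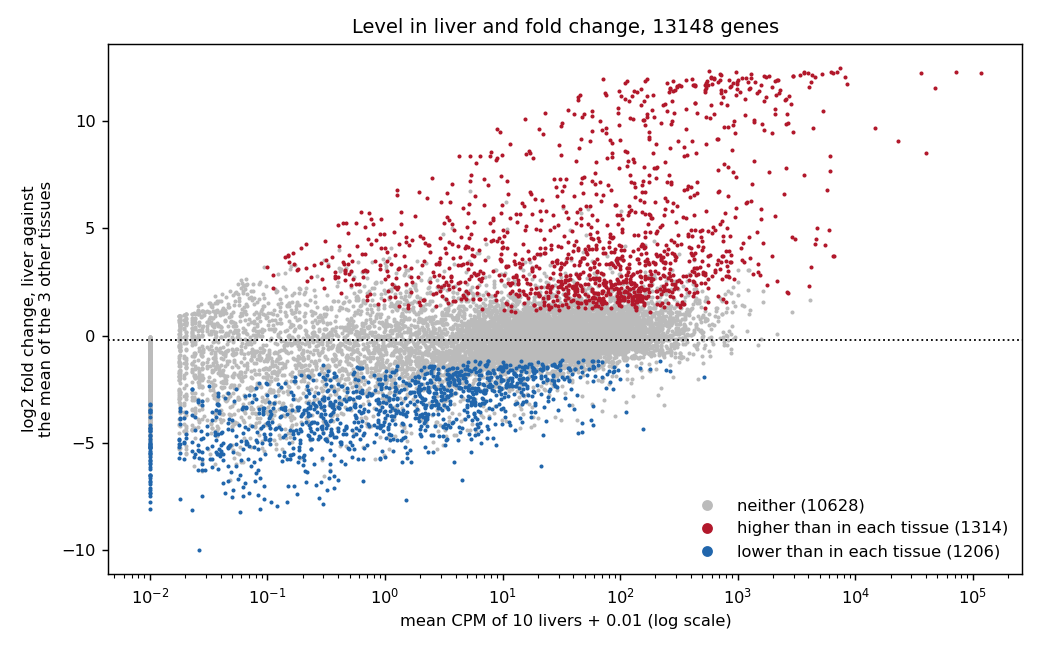
Mean level of each of 13148 genes in 10 livers (CPM + 0.01, log scale) against its log2 fold change to the mean of the 3 other tissues. Colours mark the 1314 genes higher and the 1206 lower than in each other tissue, and the dotted line is the median of all genes, -0.21. The upper edge flattens near 12 although liver levels go on to 117192 CPM.

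Plasma carriers were uniform. All 16 tested members were higher in liver than in each other tissue, with a median log2 fold change of 11.51 (all genes, -0.21), and in 15 of them no other library reached the lowest liver. TTR, the carrier of thyroxine and of the retinol carrier, lay between 1312 and 3408 CPM in liver and at most at 17.4 CPM elsewhere. CP, the copper oxidase ceruloplasmin, had 3087 to 9342 CPM in liver and up to 124 CPM elsewhere. The member that overlapped was RBP4, which carries retinol. Its livers held 1808 to 6966 CPM and fat libraries reached 2474 CPM, for a log2 fold change of 1.78 ± 0.31 against fat (edgeR quasi-likelihood test, adjusted p = 5.8e-06). SHBG, the carrier of sex steroids, was low among the carriers at 33.8 to 78.6 CPM, still above the 7.18 CPM of the highest other library.

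Of 23 tested coagulation genes, 20 were higher in liver than in each other tissue, and in all 20 the livers lay above every other library. The median fold of the list was 10.84. F2 (prothrombin) held 1821 to 4053 CPM and F9 (factor IX) 1418 to 2548 CPM in liver, against at most 7.83 and 2.20 CPM elsewhere. PROS1, the cofactor of protein C, was called with a smaller fold of 5.03 ± 0.20, since fat held up to 167 CPM. The remaining 3 members are made by vessel walls and other tissues. VWF, which tethers platelets, was lower in liver than in each other tissue, at 5.20 to 35.8 CPM against a mean of 986 ± 280 CPM in fat (SD, n = 10). Tissue factor F3 had a log2 fold change of -2.14 ± 0.33 and the plasminogen activator PLAT of -1.16 ± 0.16 against the mean of the other tissues, without differing from each of them.

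Complement genes, whose products tag and lyse microbes, were mostly higher in liver. Of 25 members tested, 20 were higher in liver than in each other tissue, with a list median of 5.35. Without the liver labelled bull 3 it was 21, and without the fat library of bull 5 22. The terminal components C5 and C9 held 3032 to 6015 and 3895 to 6540 CPM in liver, and no other library exceeded 3.70 CPM for either. C3, the central component, lay between 27625 and 55348 CPM, and the alternative pathway factor CFB between 4213 and 7188 CPM. Fat also carried CFB, at a mean of 434 ± 218 CPM (SD, n = 10), so its fold against fat was 3.83 ± 0.32 while that against muscle was 8.57 ± 0.39. Members outside the call were C1QA, C1QC, CFD, CFP and C7. C1QA, a chain of the recognition molecule C1q that macrophages make, had 187 ± 83.6 CPM in liver and 160 ± 101 CPM in fat (SD, n = 10). C7, a terminal component, held 132 ± 50.4 CPM in liver and 224 ± 55.3 CPM in pituitary gland (SD, n = 10 each).

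Acute phase proteins, whose plasma level changes in inflammation, were higher in liver in 17 of 19 members, with a median fold of 11.11. They also differed among the animals. HP lay at 3874 CPM in the lowest liver, 12387 as the median and 35866 in the highest. HAMP, the iron-regulating peptide hepcidin, ranged from 149 to 2575 CPM, and LBP, which binds bacterial lipopolysaccharide, from 423 to 2824 CPM. CRP, in contrast, kept to 2999 to 6610 CPM. The remaining members were SAA3, which was at 40.6 ± 25.5 CPM in liver and 79.5 ± 72.5 CPM in fat (SD, n = 10), and the protease inhibitor A2M. A2M was lower in liver than in fat, with a log2 fold change of -1.22 ± 0.36 (edgeR quasi-likelihood test, adjusted p = 0.00398).

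Lipoprotein genes were called higher in 15 of 18 tested members, with a median fold of 9.04. APOC3 and APOA2, small proteins of plasma lipoproteins, each had a fold of 12.09 ± 0.37. MTTP, which loads lipid onto nascent lipoproteins, stood at 161 to 402 CPM in liver and at most at 2.08 CPM elsewhere. APOE, a ligand of lipoprotein receptors, was shared with fat: 2554 to 9863 CPM in liver against 1109 ± 1199 CPM in fat (SD, n = 10). LCAT, which esterifies cholesterol in plasma, was called with a fold of 2.80 ± 0.17, and the call did not hold with library sizes alone. APOO was lower in liver than in each other tissue, at 0.944 to 6.15 CPM, but its call was lost with RLE factors, with DESeq2 and without the fat library of bull 5.

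**Figure D3:**
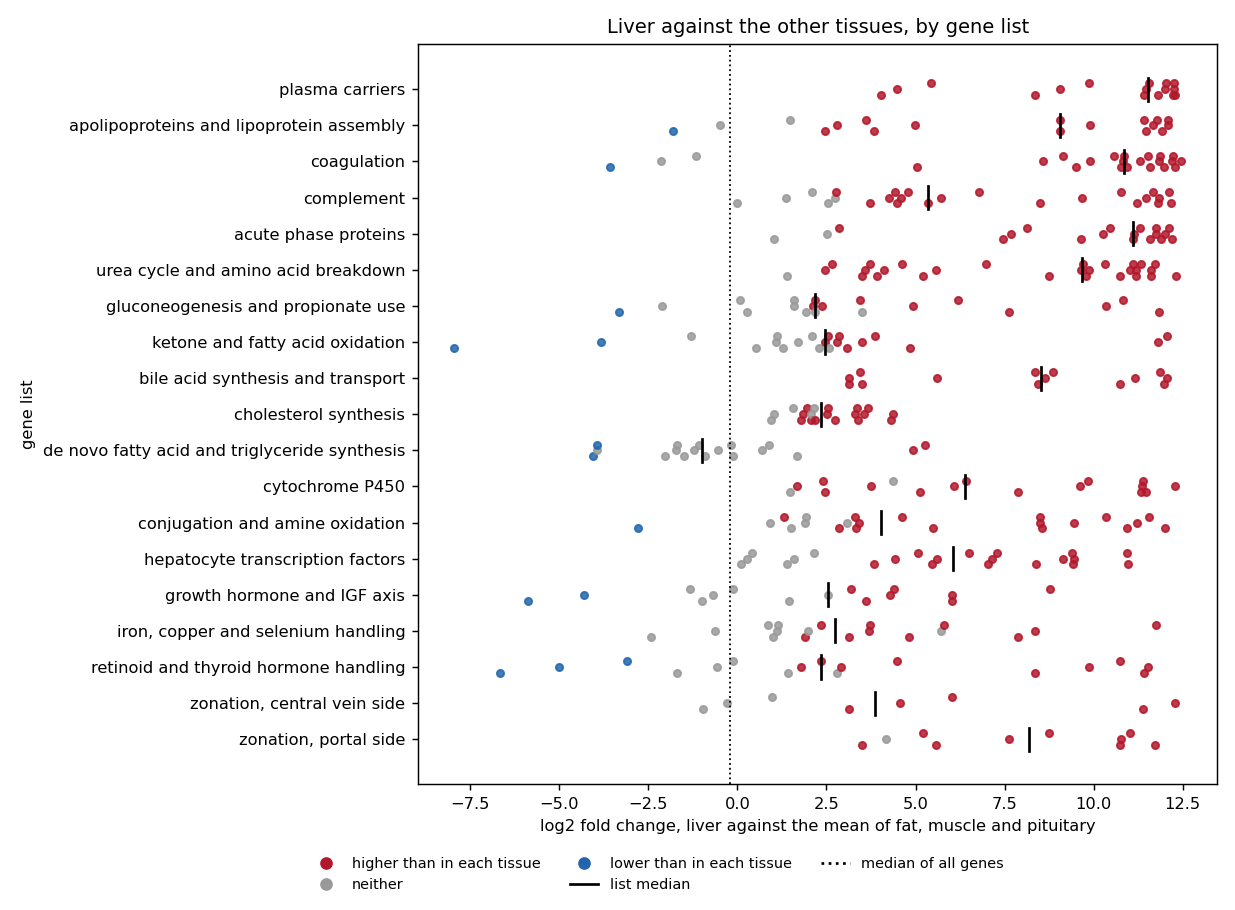
Log2 fold change of liver against the mean of fat, muscle and pituitary gland for every tested member of 19 gene lists. Each point is a gene, colours mark genes called higher or lower than in each other tissue, short bars are list medians and the dotted line is the median of all genes (STRA6, with no read in liver, stands at a fitted value that depends on the prior count). Plasma carriers, coagulation and acute phase genes gather near 11 to 12, and the fatty acid synthesis list lies mostly to the left of 0.

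Genes of urea synthesis and amino acid breakdown were nearly all higher in liver. Of 28 tested members 27 were higher than in each other tissue, with a median fold of 9.66. CPS1 held 4821 to 12888 CPM in liver and at most 19.7 CPM elsewhere. ARG1, the arginase that releases urea, held 261 to 916 CPM against at most 0.687 CPM. The enzymes that join and split argininosuccinate had smaller folds: ASS1 had a fold of 5.58 ± 0.18 and ASL of 3.73 ± 0.19, and other libraries reached 118 and 119 CPM. The exception was GNMT, a methyltransferase of glycine, with 38.6 ± 42.9 CPM in liver and 42.9 ± 15.2 CPM in pituitary gland (SD, n = 10).

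Genes of glucose production from propionate rose in part. Of 19 tested members 10 were called higher (all genes, 9.99%) and 1 lower (9.17%), with a median fold of 2.19. On the route from propionate, the carboxylase subunits PCCA (141 to 212 CPM) and PCCB (150 to 393 CPM) and the mutase gene MUT (645 to 1097 CPM) were all higher than in each other tissue. For PCCB the call was lost with library sizes alone. G6PC, which releases free glucose, had 420 to 1623 CPM in liver and at most 1.39 CPM elsewhere. SLC2A2, the glucose transporter of hepatocytes, had 128 to 548 CPM against at most 0.315 CPM.

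The cytosolic and mitochondrial enzymes at the entry to gluconeogenesis differed. Cytosolic PCK1 ranged from 410 to 3070 CPM in liver and was 3.05 ± 0.40 above fat on the log2 scale. Mitochondrial PCK2 had 424 ± 173 CPM in liver and 471 ± 219 CPM in fat, and pyruvate carboxylase PC 442 ± 297 and 439 ± 214 CPM (SD, n = 10 each). Their folds against fat, -0.17 ± 0.31 and -0.03 ± 0.31, had adjusted p-values of 0.644 and 0.947 in the edgeR quasi-likelihood test. FBP1 was the liver form of the bisphosphatase, at 250 to 966 CPM, while FBP2 was the muscle form, at 480 ± 185 CPM in muscle (SD, n = 10) and 0.957 to 26.4 CPM in liver. ACSS2, which activates acetate, was far below fat at a log2 fold change of -5.82 ± 0.48 and overlapped muscle and pituitary gland.

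Both BDH1 and OXCT1, genes of ketone body use, were lower in liver than in each other tissue. BDH1, which interconverts the main ketone bodies, showed the most negative fold of all genes called lower than in each tissue with at least 10 CPM in each of them. It had no read in 7 livers and at most 0.716 CPM, against 3.93 CPM in the lowest other library and means of 29.0 ± 26.1 CPM in fat, 29.2 ± 12.4 in pituitary gland and 27.1 ± 23.1 in muscle (SD, n = 10 each). The fold was -7.94 ± 0.61 (edgeR quasi-likelihood test, adjusted p = 5.93e-14). OXCT1, which other tissues need to burn ketone bodies, was also below every other library, at 5.72 to 21.5 CPM in liver against 34.1 CPM or more, with a fold of -3.81 ± 0.28.

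Over the ketone and fatty acid oxidation list, 10 of 21 tested members were called higher (all genes, 9.99%) and 2 lower (9.17%). The median fold was 2.45. CPT2, which passes fatty acids into the mitochondrial matrix, and ACADM, a dehydrogenase of medium-chain fatty acids, had folds of 2.56 ± 0.12 and 3.08 ± 0.14. HADHA, of the trifunctional protein, did not pass the test against fat. It held 446 ± 121 CPM in liver and 478 ± 122 CPM in fat (SD, n = 10 each), and its fold was -0.11 ± 0.16.

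**Figure D4:**
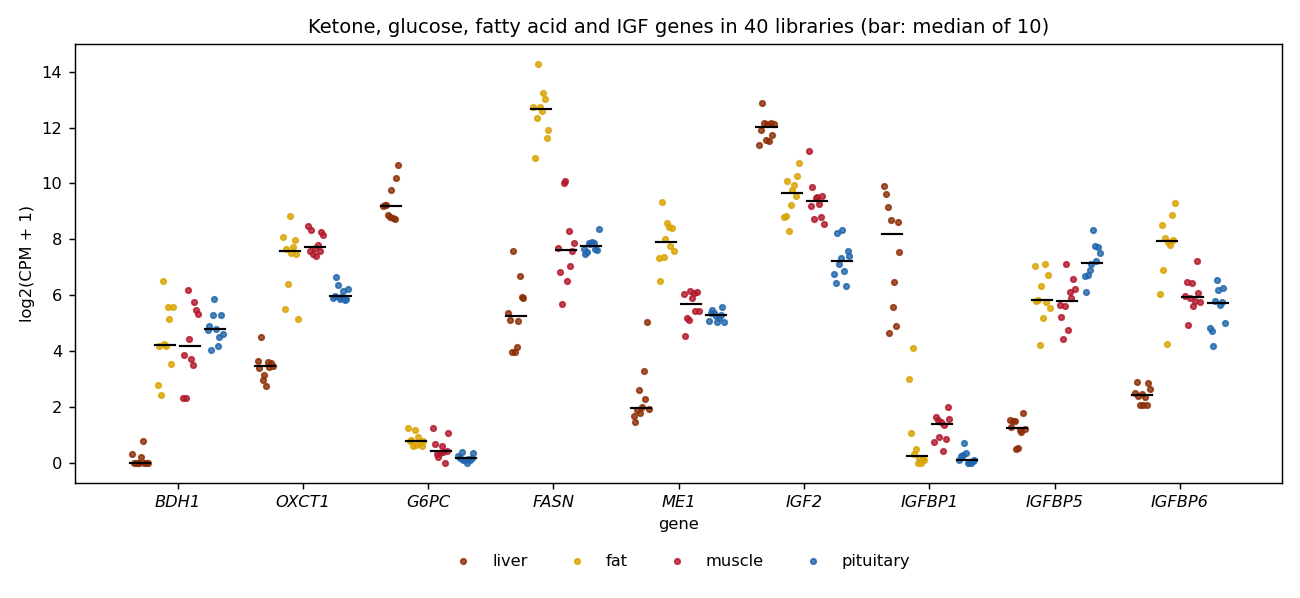
Level of genes of ketone, glucose and fatty acid metabolism and of the IGF family in each of 40 libraries, as log2(CPM + 1). Points are libraries, colours mark the tissue and bars are medians of 10 libraries. G6PC and IGF2 are highest in liver, while BDH1, OXCT1, IGFBP5 and IGFBP6 of every liver lie below every other library.

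Fatty acid and triglyceride synthesis was the one pathway list of 19 with a negative median, -0.99. Of 18 tested members 2, MLXIPL and FADS2, were higher in liver than in each other tissue, and 2, FASN and ME1, were lower (4 with library sizes alone). These shares are near those of all genes, 9.99% higher and 9.17% lower. FASN, the fatty acid synthase, held 14.7 CPM in the lowest liver, 36.8 as the median and 190 in the highest, against a mean of 7232 ± 5058 CPM in fat (SD, n = 10). Its fold was -7.08 ± 0.48 against fat, -2.39 ± 0.40 against muscle and -2.34 ± 0.39 against pituitary gland. ME1, which supplies NADPH, lay between 1.74 and 32.2 CPM in liver with a fold of -4.06 ± 0.33 against the mean of the other tissues. Other members were lower than in fat. ACACA, which makes malonyl-CoA, and DGAT2, which completes triglycerides, had folds of -4.23 ± 0.36 and -6.65 ± 0.43 against fat, and DGAT2 was 2.82 ± 0.37 above pituitary gland. SCD, the stearoyl-CoA desaturase, ranged from 19.0 to 2017 CPM among the livers. Its fold of -2.04 ± 0.55 had adjusted p = 0.00158 in the edgeR quasi-likelihood test, but without the replicate block the fold was -0.82 and adjusted p = 0.167 (0.00227 or less in the other alternatives).

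Bile acid genes were higher in liver in all 14 tested members, with a median fold of 8.53. CYP7A1, the rate-limiting enzyme of bile acid synthesis, lay between 10.9 and 498 CPM in liver and at most at 0.276 CPM elsewhere. CYP8B1, which sets the share of cholic acid, held 90.7 to 525 CPM. CYP27A1, which opens the alternative route, was also carried by fat, at 182 ± 71.0 CPM (SD, n = 10) against 278 to 757 CPM in liver. The uptake transporter SLC10A1 and the canalicular pump ABCB11 held 382 to 1362 and 95.7 to 408 CPM. NR1H4, the nuclear receptor of bile acids, held 65.7 to 207 CPM and at most 0.202 CPM in other libraries.

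Cholesterol synthesis differed from bile acids in the size of its folds. Of 20 tested members 15 were higher than in each other tissue, with a median fold of 2.35, and 9 with library sizes alone. In only 4 members did every liver exceed every other library, SC5DL among them at 549 to 2356 CPM. In 17 of the 20 members, the livers of cow 4 and of the library labelled bull 3 were the 2 highest. The same pair was highest in 91 of the 1045 genes called higher with at least 10 CPM in liver. Cows 1 and 2 were the 2 highest in 136 of those genes. In the fatty acid synthesis list the livers of cow 4 and of the library labelled bull 3 were highest in 7 of 18 members. HMGCS1, which makes the precursor of mevalonate, held 2708 and 3039 CPM in that pair and 100 to 759 CPM in the other 8 livers. Without the library labelled bull 3, the fold of HMGCS1 was 2.28 in place of 2.75, and it was called in either case.

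Cytochrome P450 genes were higher in liver in 15 of 17 tested members (14 without the liver labelled bull 3), with a median fold of 6.40. CYP1A2, CYP3A5 and CYP2C19, which oxidize drugs and plant compounds, each had a log2 fold change above 11. CYP2C19 varied from 139 to 2042 CPM among livers, and CYP1A2 from 946 to 2263 CPM. POR, the reductase that feeds electrons to these enzymes, was called with a smaller fold of 2.45 ± 0.13. CYP2B6 was not called: its livers ranged from 1.97 to 444 CPM and its fat libraries averaged 314 ± 257 CPM (SD, n = 10). Members of these families share sequence, so unique reads may undercount them.

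Conjugating and amine-oxidizing enzymes followed, with 16 of 22 members called higher (all genes, 9.99%), 1 lower (9.17%) and a median fold of 4.02. Without the liver labelled bull 3, 15 were higher, and without the fat library of bull 5, 17. UGT1A1, which conjugates bilirubin, held 116 to 337 CPM and SULT2A1, which sulfates bile acids and steroids, 333 to 1300 CPM in liver. FMO1, which oxidizes amines, held 817 to 2646 CPM. SULT1A1 was not called, since fat held 829 ± 385 CPM against 1012 ± 210 CPM in liver (SD, n = 10 each). GSTP1, a glutathione transferase, was the member that fell, to 6.26 to 45.7 CPM in liver against 223 ± 164 CPM in fat (SD, n = 10), with a fold of -2.80 ± 0.32.

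Transcription factors of the hepatocyte were called higher in 16 of 22 tested members, with a median fold of 6.04. HNF4A, a nuclear receptor that drives many hepatocyte genes, held 380 to 1450 CPM in liver. Fat carried 27.0 ± 10.8 CPM (SD, n = 10), and pituitary gland 0.131 CPM as the mean. GATA4 and NR1I2, the pregnane X receptor, lay between 27.8 and 159 CPM in liver, and no other library exceeded 0.648 CPM for either of them. PROX1 was also present in muscle and pituitary gland, with a fold of 3.38 ± 0.35 against muscle. CEBPA, a factor of fat as well as liver, was lower in liver than in fat by a log2 fold change of -1.33 ± 0.25, and CEBPD and NR2F1 had adjusted p-values of 0.671 and 0.259 against the mean of the other tissues in the edgeR quasi-likelihood test.

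The growth hormone and IGF axis was higher in part. Of 15 tested members 7 were higher (all genes, 9.99%) and 2 lower (9.17%) than in each other tissue, so the share lower was near that of all genes. The median fold was 2.53. With library sizes alone 4 were higher, and without the fat library of bull 5, 8. IGF2, an insulin-like growth factor, held 2684 to 7506 CPM in liver and at most 2306 CPM elsewhere. IGF1, through which growth hormone acts, held 7.66 to 181 CPM in liver with a median of 21.2, and IGFALS, which stabilizes it in plasma, held 14.6 to 158 CPM. The growth hormone receptor GHR was at 159 to 517 CPM and fell short of the call by its fold of 0.94 ± 0.31 against muscle. It was called with DESeq2, RLE factors, a stricter count filter and without the fat library of bull 5.

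IGF binding proteins were divided. IGFBP1 held 23.9 to 960 CPM in liver and at most 16.1 CPM elsewhere, IGFBP4 was higher than in each other tissue at 1036 to 2273 CPM, and IGFBP2 was called with folds of 1.83 ± 0.59 to 6.95 ± 0.76. The calls of IGFBP2 and IGFBP4 were lost with library sizes alone. IGFBP3, the main carrier in plasma, was at 198 ± 48.3 CPM in liver and 224 ± 177 CPM in fat (SD, n = 10 each). IGFBP5 and IGFBP6 were below every other library, at 0.410 to 2.42 and 3.15 to 6.33 CPM in liver against 17.8 and 17.0 CPM or more elsewhere. Their folds were -5.88 ± 0.37 and -4.30 ± 0.37.

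Metal and selenium genes were called higher in 10 of 18 tested members (all genes, 9.99%), with a median fold of 2.74. TFR2, a sensor of iron-loaded transferrin, held 118 to 244 CPM in liver and up to 6.49 CPM elsewhere, while the uptake receptor TFRC held more in muscle, 453 ± 147 CPM against 106 ± 67.0 CPM in liver (SD, n = 10 each). HFE2, the hemojuvelin gene, was likewise above fat and pituitary gland and below muscle, by a log2 fold change of -2.46 ± 0.30. SEPP1, the plasma selenium carrier, lay between 3353 and 14744 CPM in liver, above every other library. GPX3, a plasma glutathione peroxidase, held 225 ± 263 CPM in liver and 3429 ± 1835 CPM in pituitary gland (SD, n = 10 each).

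Retinoid and thyroid hormone genes included 9 of 17 tested members called higher (all genes, 9.99%) and 3 called lower (9.17%). The median fold was 2.34. Without the liver labelled bull 3, 9 were higher and 2 lower, and without the fat library of bull 5, 10 and 2. RDH16, which oxidizes retinol, held 450 to 1081 CPM and LRAT, which esterifies it for storage, 13.7 to 44.2 CPM in liver. The deiodinases of thyroid hormone differed in direction. DIO1, which releases active hormone, held 237 to 1041 CPM in liver and at most 0.552 CPM elsewhere. DIO2 and DIO3 were lower in liver than in each other tissue, with means of 0.0322 and 0.329 CPM, and 25.3 ± 11.1 and 5.34 ± 4.24 CPM in pituitary gland (SD, n = 10 each). The call of DIO2 was lost without the library labelled bull 3, without the fat library of bull 5, with RLE factors and with DESeq2. STRA6, the retinol receptor, had no read in 10 livers, which allows up to 0.0346 CPM over the group, and was highest in pituitary gland at 15.1 ± 8.45 CPM (SD, n = 10).

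Hepatocytes differ along the path of the blood from the portal vein to the central vein. Genes of the portal side, where urea is made, were called higher in 9 of 10 tested members (all genes, 9.99%). Their median fold was 8.18. Those of the central side were called higher in 5 of 8, with a median of 3.85. HAL, the histidine ammonia-lyase of the portal side, held 10.9 to 106 CPM. Of the central side, LGR5, a receptor of Wnt signalling, held 3.37 to 19.0 CPM in liver and at most 0.915 CPM elsewhere. GLUL, the glutamine synthetase that marks the last cells before the vein, had 772 ± 450 CPM in liver and 2414 ± 1609 CPM in muscle (SD, n = 10 each). Its fold against the mean of the other tissues was -0.29 ± 0.22, with adjusted p = 0.262 in the edgeR quasi-likelihood test.

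Of the 1206 genes lower in liver than in each other tissue, 475 had a mean of at least 10 CPM in each of the 3 other tissues. After BDH1, the most negative folds were those of EPDR1 (-7.37 ± 0.34), the Wnt antagonist SFRP4 (-7.18 ± 0.53), B3GALNT1 (-6.95 ± 0.33), TPPP3 (-6.78 ± 0.39) and the cadherin CDH13 (-6.74 ± 0.29). QPCT, ISLR, FHL1 and the fibroblast growth factor FGF10 completed the list, with folds between -6.61 ± 0.47 and -5.97 ± 0.37. For all 10 of these genes every liver lay below every other library, as for 382 of the 1206 genes and 3.0% of all genes. The 10 were chosen by their folds, so their separation follows in large part from the choice. CDH13, which is found on endothelium, held 1.29 to 11.5 CPM in liver and at least 93.9 CPM elsewhere. FHL1, abundant in muscle at 17851 ± 3558 CPM (SD, n = 10), still had 11.7 to 32.4 CPM in liver.

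Markers of the other liver cells were present in the livers. STAB2 and CLEC4G, of sinusoidal endothelium, held 119 to 429 and 61.0 to 187 CPM in liver and at most 0.887 and 13.1 CPM elsewhere. Of 6 tested members of that list 4 were called higher (all genes, 9.99%). STAB1, a receptor of the same family, was not, with 163 ± 81.6 CPM in liver and 311 ± 249 CPM in fat (SD, n = 10 each). Of 9 tested macrophage markers 4 were called higher (all genes, 9.99%). The count was 1 with library sizes alone and 5 without the fat library of bull 5. CD5L, a protein of tissue macrophages, held 265 to 672 CPM and stood above every other library, whereas CD163 overlapped fat, at 262 to 1434 CPM against 364 ± 170 CPM (SD, n = 10), and its call was lost without the library labelled bull 3. VSIG4 was lower in liver than in fat, by a log2 fold change of -1.39 ± 0.31. A list of T, B and NK cell markers, with PTPRC, which other white blood cells also carry, summed to 86.5 to 317 CPM in liver. In fat its sum was 22.65 to 90.97 CPM. Of its 8 tested members 5 were called higher (all genes, 9.99%), CD3E and PTPRC among them. The count was 3 with library sizes alone and 6 without the fat library of bull 5. The call of PTPRC was among those lost with library sizes alone.

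Most fibroblast markers were lower in liver than in the mean of the other tissues. The list summed to 560 to 1044 CPM in liver, which overlapped the 587 to 1884 CPM of pituitary gland. The sums were 8961 to 46547 CPM in fat and 12906 to 22357 CPM in muscle. DES is in this list and also in that of muscle fibres, so the muscle sum is not of fibroblasts alone. Of 11 stellate cell and fibroblast markers 8, DES among them, were lower than the mean of the other tissues (24.0% of all genes). Of the 11, 2 were higher and 4 lower than each other tissue (all genes, 9.99% and 9.17%), with a median fold of -2.69. RELN, a marker of stellate cells, held 65.5 to 136 CPM in liver and at most 24.8 CPM elsewhere, but the collagen gene COL1A1 held 13.8 to 121 CPM against a mean of 4833 ± 3721 CPM in fat (SD, n = 10). Of 6 markers of endothelium in general 1 was called higher (all genes, 9.99%) and 2 lower (9.17%), with a median fold of -0.32 (all genes, -0.21). Of 6 tested bile duct markers 1 was called higher (all genes, 9.99%), and KRT19 held 3.15 to 14.9 CPM. The bile duct list summed to 33.0 to 131 CPM in liver and to 430 to 2881 CPM in pituitary gland. Red cell genes summed to 12.95 CPM or less in every liver.

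Markers of the other 3 tissues were low in liver but not at 0. The 6 tested adipocyte markers summed to 18.0 to 61.8 CPM in liver against 7876 to 26899 CPM in fat. The 10 muscle fibre markers summed to 38.3 to 237 CPM against 153824 to 246412 CPM in muscle, and the 12 pituitary markers to 17.9 to 416 CPM against 91113 to 296758 CPM in pituitary gland. The liver of bull 2 was the highest for ACTA1 (70.0 CPM), FABP4 (10.02 CPM) and PRL (311 CPM). Their part in the results was not tested.

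The livers also differed from each other. Among the 1045 genes called higher with at least 10 CPM in liver, the SD of log2(CPM + 1) over 10 livers had a median of 0.52. The largest was that of CUX2, a transcription factor, at 2.84. It was followed by TMEM45A, the fatty acid desaturase FADS2, IGFBP2, the monocarboxylate transporter SLC5A8, CYP7A1, the sterol exporter ABCG8, IGFBP1, RNF125 and CYP2E1. FADS2 spanned 8.87 to 2852 CPM, with 2852 and 2526 CPM in cow 4 and the library labelled bull 3 and 369 CPM in the next liver. CYP7A1 held 409 to 498 CPM in cows 1 to 3 and 10.9 to 82.7 CPM in the other 7 livers. IGFBP1 was lowest in cow 4 and the library labelled bull 3, at 23.9 and 28.8 CPM, and highest in cow 1. IGFBP2 was at 0.358 CPM in the liver of bull 2 and at 293 CPM in that of cow 5.

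The least variable genes were TMLHE, which starts carnitine synthesis, and the complement gene C2, with SDs of 0.13. TMLHE lay between 20.4 and 27.5 CPM and C2 between 468 and 641 CPM. SOD1, AGXT2, PCCA, SLC35D2, GALM, DHTKD1, AADAC and LOC511240 followed with SDs of at most 0.20, and the highest liver was at most 1.55 times the lowest for any of the 10. Of these, SOD1 lost its call with library sizes alone. In the least variable genes all livers lay above every other library, whereas for 6 of the 10 most variable genes some livers did not. Both sets were chosen by spread among livers from genes already called higher, so this difference follows in large part from the choice.

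**Figure D5:**
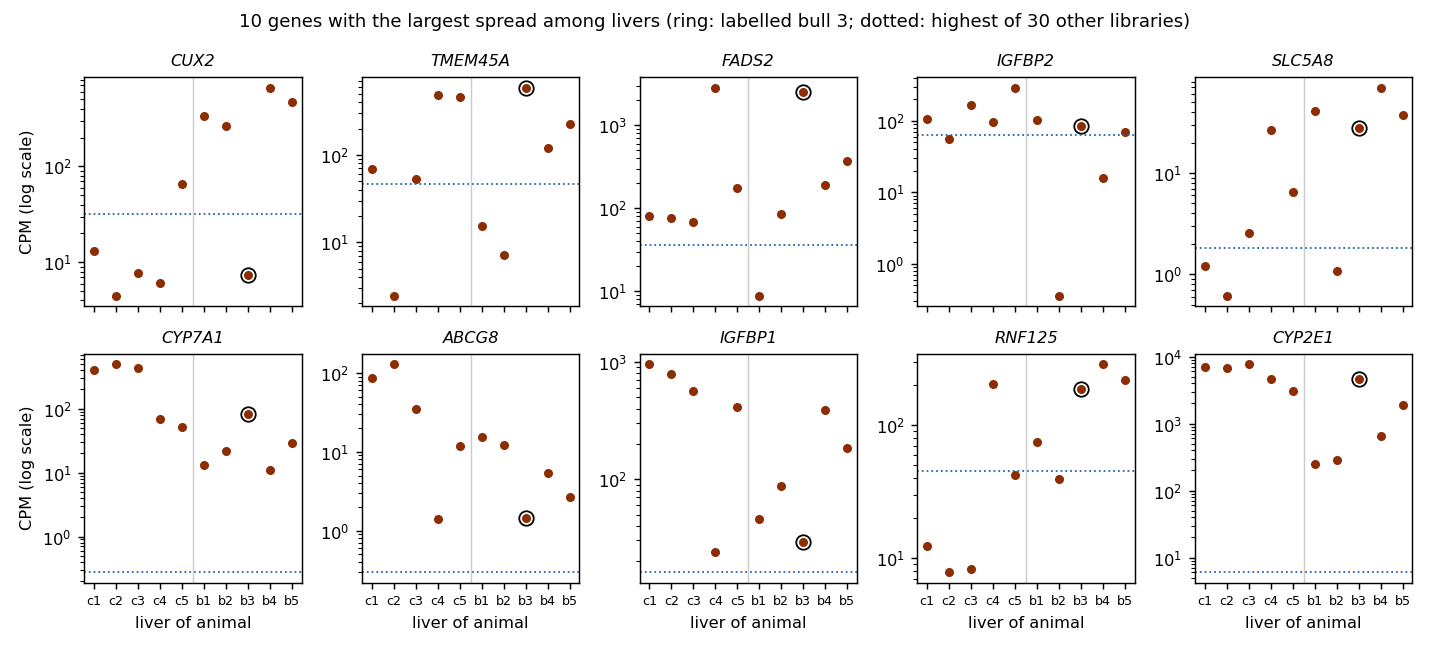
Level of the 10 genes with the largest spread among livers, in CPM on a log scale, in the livers of cows 1 to 5 (c1 to c5) and bulls 1 to 5 (b1 to b5). Each point is a liver, the ring marks the library labelled bull 3 and the dotted line is the highest of the 30 libraries of other tissues. The ringed library lies close to that of cow 4 in FADS2, RNF125 and IGFBP1, and with the cows in CUX2.

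Liver genes often lay side by side in the genome. In the gene order of the RefSeq annotation of ARS-UCD2.0, an assembly other than the one the reads were aligned to, 12982 tested genes could be placed. Of 1294 placed genes called higher, 35.6% had a neighbour that was also called higher, against 16.6% of the other placed genes. There were 18 runs of 4 or more adjacent called genes, holding 86 genes. One run contained APOA5, APOA4, APOC3 and APOA1, another the fibrinogen genes FGG, FGA and FGB with LRAT, and another KNG1, HRG, FETUB and AHSG. The longest, of 7 genes, ran from C28H10orf57 over the collectins to MAT1A. Several runs are tandem families such as SERPINA, UGT2B, FMO and ADH genes, whose reads may be shared among copies.

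The last comparison asked whether the difference of liver from the other tissues itself differed between cows and bulls. No gene passed an adjusted p of 0.05 (0.00% of 13148) in the edgeR quasi-likelihood test. In that test 627 had an unadjusted p below 0.05, fewer than the 1 in 20 that no difference at all would give. The smallest adjusted p was 0.0959. Among the genes that shared it were the 5 with the smallest p: IRX3, NUF2, AK4, CUX2 and RHOJ. CUX2 lay between 4.49 and 64.8 CPM in the livers of cows and between 266 and 665 CPM in 4 livers of bulls, but at 7.41 CPM in the library labelled bull 3. Its log2 difference, male minus female, was 4.50 ± 0.93. Without the library labelled bull 3 it was 5.02 ± 0.83, and 7 genes passed, among them AK4, CUX2, CYP2E1, EPCAM, IRX3 and NUF2. CYP2E1 held 3009 to 7697 CPM in the livers of cows and 248 to 1880 CPM in those of the 4 other bulls. Without the liver of cow 4, 9 genes passed, and without that of cow 5, 8 genes. RHOJ, a small GTPase, was highest in cows 1 to 3 at 99.6 to 133 CPM, while the other 7 livers, cows 4 and 5 included, held 16.5 to 22.7 CPM. The likelihood ratio test called 21 genes, DESeq2 25 and the fit without the replicate block 5.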

How the data were processed

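Poly-A RNA of 4 tissues of 10 cattle was sequenced as paired-end reads. The authors trimmed adapters with Trimmomatic, aligned reads to bosTau7 with Bowtie2 in TopHat2, and counted uniquely aligned reads per gene with HTSeq; they deposited raw counts, neither filtered nor pooled. The counting mode and the use of strand are not given in the sources used here, so overlapping and antisense genes cannot be separated. Rows for uncounted reads and a row with no gene name (0.114% to 2.69% of the reads on genes) were left out.

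From these counts, edgeR 4.0.16 (R 4.3.3) fitted quasi-likelihood models of animal and tissue with TMM factors to the 13148 genes with at least 1 read, over all 40 libraries (27 residual degrees of freedom), with liver set against the mean of the other tissues and against each. The contrast by sex added the interaction of tissue and sex. Genes were called at an adjusted p of 0.05 and a log2 fold change of 1 in size. Folds used a prior count of 0.125, a small number added to the counts, and the SEs were computed from folds without it. A group with no read was given the level of 3 reads as its limit, for counting error only. Same-animal libraries came from the ear tags in the titles; their deviations from tissue means correlated with those of liver at a mean r of 0.156 (fat), 0.213 (muscle) and 0.267 (pituitary gland), against -0.0148, -0.0227 and -0.0300 for other animals, and the animal was a block because the labels give each animal all 4 tissues. For bull 3, whose liver did not match its label, r was 0.0961, -0.125 and -0.107. Nothing says that libraries were made in separate batches. The test was tried on simulated counts first. Alternatives were the fit without the block, the likelihood ratio test, DESeq2 1.42.0, RLE factors, library sizes alone, filterByExpr, and fits without or with merged libraries; those without the fat library of bull 5 or without each other liver were chosen after seeing the data.

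Named genes were the 3 markers, the 15 largest and 10 most negative folds, the 10 largest and 10 smallest SDs among livers, the 10 largest shares of reads, the 5 smallest p-values by sex, and members of 19 pathway and 11 cell type lists. The genes that show the sex of a library and those named as passing under an alternative were chosen after their values were seen. The members and lists were chosen with earlier results of these data known. Some genes and their results are not reported here.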

Additional observations from a re-analysis of the deposited data

Results flagged for a closer look

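For 32 of 191 genes checked, 1 liver stood apart from the other 9: its gap to the nearest liver, divided by the range of all 10, exceeded Dixon's 95% critical value. Chance flags about 1 in 20 groups where values are normally distributed. CPM on the linear scale need not be, so the number flagged cannot be set against that rate. Values are CPM, and no explanation was tested.

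The liver of bull 2 stood apart most often. It was high for TF, the iron carrier (37500, next 27800), AK4 (125, next 54.2), HADHA (716, next 526) and SPP1 (25.2, next 5.38). KRT19 (14.9, next 9.30), ACTA1 of muscle (70.0, next 16.8) and FABP4 of fat cells (10, next 3.40) were high as well. BDH1 was also flagged (0.716, next 0.242), but on 4 reads, against 3 in the next liver, that of cow 1. The liver of bull 2 was low for APOA2 (822, next 2740) and UGT1A1 (116, next 220).

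Growth hormone axis genes stood apart in bull 4, with IGF1 at 181 (next 64.1) and IGFALS at 158 (next 71.7), together with ME1 at 32.2 (next 8.77) and NUF2 at 78.6 (next 17.2). The liver of bull 1 was high for CRP (6610, next 4760), MT1A (950, next 393) and GPX3 (927, next 357), and low for PCCA (141, next 176). That of bull 5 was high for IRX3 (41.4, next 9.68).

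Among cows, cow 5 was high for SDS, a serine dehydratase (609, next 140), AMBP (12600, next 7890) and GSTP1 (45.7, next 24.5), and low for C2 (468, next 588). Cow 2 was high for APOE (9860, next 6100), F2 (4050, next 2990), TFR2 (244, next 183) and ISLR (1.12, next 0.537). Cow 3 was high for SEPP1 (14700, next 7480), IGF2 (7510, next 4650) and OXCT1 (21.5, next 11.4). Cow 1 was high for COL1A1 (121, next 63.3) and cow 4 for FASN (190, next 102).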

How the results depend on the processing

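The counts against the mean of the other tissues and against each of them stayed within 1.5 times of the reported ones under the 9 alternatives run on them, from 908 (library sizes alone) to 1408 (without the fat library of bull 5) genes higher than in each and 1082 (DESeq2) to 1751 (library sizes alone) lower. The alternative without the replicate block shared 1283 of the 1314 higher and 1180 of the 1206 lower genes. It gave 5 genes in the contrast by sex, the only one of the counts that moved in this alternative. Whether the pairing by animal moved it was not tested. With a log2 fold change of at least 2 or 3 the counts were 784 and 526 higher, and 595 and 270 lower. Against the mean of the other tissues, library sizes alone gave 1816 genes higher and 4616 lower in place of 2473 and 3161, and the median of all genes was -0.64; it was -0.03 with DESeq2.

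The contrast by sex was the result that changed. In place of 0 genes it gave 5 without the replicate block, 21 with the likelihood ratio test, 25 with DESeq2, 5 with the livers of cow 4 and bull 3 taken as 1 sample, and 0 to 9 when each liver was left out in turn (7 without the library labelled bull 3, 9 without cow 4, 8 without cow 5, 1 without bull 1 and 2 without bull 5). Why these differed was not tested. Of 192 genes checked, the 187 past an adjusted p of 0.05 against the mean of the other tissues kept the sign of their fold in each alternative that tested them, while 3 of the other 5, C7, CEBPD and NR2F1, changed sign in at least 1 alternative. With library sizes alone, calls were lost for genes that include LCAT, C1QB, PCCB, CYP27A1, IGFBP2, IGFBP4, PRLR, CD163, PTPRC, SOD1 and NUF2. Depth limits the low end: a gene with no read in 10 livers could stand at up to 0.0346 CPM.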
